A study of Mus musculus with 3 samples.

Results

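The genes described are 10 lysosomal proteases of the mouse, the cathepsins Ctsa, Ctsb, Ctsc, Ctsd, Ctsh, Ctsk, Ctsl, Ctss and Ctsz and the asparaginyl endopeptidase legumain (Lgmn). They were chosen by name as 10 of the 32285 gene rows, and their transcripts were followed per library through macrophages, monocytes, dendritic subsets, plasmacytoid cells, B cells, T cells and natural killer (NK) cells of the sciatic nerve. The nerves came from NOD.AireGW/+ mice with neuropathy, from which CD45+ cells, those of the blood lineage, had been sorted. These mice carry 1 copy of a partial loss-of-function allele of the tolerance gene Aire on the diabetes-prone NOD background. Single-cell 5′ RNA sequencing gave 3 libraries of this 1 group, from 1 mouse, 1 mouse and a pool of 2 mice. The study's methods give the mice as female, and ages were not given in the sources used here. Mice without neuropathy were not analysed, so classes of cells were compared within libraries and no effect of neuropathy was tested.

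Lysosomal proteases are made as inactive proenzymes and are matured in the acid of endosomes and lysosomes. In antigen-presenting cells they cut proteins into peptides for MHC class II and degrade the invariant chain that guards its groove, and in cytotoxic lymphocytes some of them convert progranzymes into active granzymes. The set covers several enzyme classes: most members are papain-like cysteine proteases, Ctsd is an aspartic protease, Ctsa is a serine carboxypeptidase and Lgmn cuts after asparagine.

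Each cell was placed in a class by marker genes that included none of the 10 members, and 10400 of 13637 cells received a class. The deposited libraries held 3926, 8311 and 1533 cells with 22983991, 55120460 and 3399733 UMIs (unique molecular identifiers, each tagging 1 captured RNA molecule). Classes were uneven across libraries. Macrophages numbered 6, 2102 and 5 in libraries 1 to 3, mature dendritic cells (DCs) 6, 57 and 5, conventional DCs of type 2 (cDC2) 10, 38 and 4, and plasmacytoid cells 36, 98 and 7. Monocytes (61, 97 and 32), conventional DCs of type 1 (cDC1; 34, 127 and 10), B cells (330, 241 and 70), T cells (2355, 3575 and 967) and NK cells (48, 67 and 12) reached 10 cells in every library. In each of the 26 sums of at least 5 cells, 7 or more markers of the class's own list were detected. The gate itself asks for at least 3 of them per cell, so this is no separate check of the classes. The pairs of libraries shared 36, 7 and 14 cell barcodes. Library 1 came with no gene list and took the row order of the others, with which its row totals correlated at a Spearman rho of 0.950 and 0.929 across genes. T cells of library 3 held 1693 CPM of neutrophil markers against 0.0875 and 1.46 in libraries 1 and 2; the part of this in the member levels was not tested.

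The members lie on 7 chromosomes of the mouse build mm10, which the files use, and all are protein-coding. Ctsk (chr3:95499256-95509362) and Ctss (chr3:95526786-95556403) are neighbours on the + strand of chromosome 3. Ctsa (chr2:164832873-164841032, + strand) and Ctsz (chr2:174427493-174439039, - strand) share chromosome 2, and Ctsc (chr7:88278085-88310888, + strand) and Ctsd (chr7:142375911-142388038, - strand) share chromosome 7. Ctsh lies at chr9:90054152-90076089 (+ strand), Lgmn at chr12:102394084-102439813 (- strand), Ctsl at chr13:64359337-64370890 (- strand) and Ctsb at chr14:63122462-63145923 (+ strand). Genes on the opposite strand overlap Ctsa (Neurl2 and Pltp), Ctsb (Fdft1), Ctsz (Nelfcd) and Ctsl (Gm47123), and the strand setting of the counting was not given in the sources used here.

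The promoters of the members were searched for a palindromic E-box, CACGTG, which is the core of the CLEAR element bound by TFEB, a regulator of lysosomal genes, and for GAGGAAGT, a motif bound by PU.1, a factor of myeloid and B cells. Windows ran from 250 bases before to 50 bases after each RefSeq gene start (GRCm38.p6), with both strands searched. Windows were held for 8 of the 10 members. CACGTG was found in 7.15% of all 32851 windows and in 4 of the 10 member windows, which belong to 4 of the 8 members. Its extended form TCACGTGA, which contains CACGTG, was found in 0.974% of windows and in 2 of the 10 member windows (2 members). GAGGAAGT was found in 3.20% and in 2 of the 10 (2 members). A match is a description of the letters only. The stretches shown were chosen because they hold a match, not by the members' levels, and run 5′ to 3′ on the gene's strand, with the matched letters in capitals (ACTTCCTC is GAGGAAGT on the other strand). They come from chr2:164833736-164833782 for Ctsa (+ strand, 1 of its 2 RefSeq starts), chr7:142387895-142387950 for Ctsd (- strand), chr12:102439112-102439165 for Lgmn (- strand, 1 of its 2 RefSeq starts), chr7:88277910-88277965 for Ctsc (+ strand) and chr3:95526760-95526795 for Ctss (+ strand).
Ctsa: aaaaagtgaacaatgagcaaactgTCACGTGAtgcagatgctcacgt
Ctsd: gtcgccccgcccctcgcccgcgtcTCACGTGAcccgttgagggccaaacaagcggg
Lgmn: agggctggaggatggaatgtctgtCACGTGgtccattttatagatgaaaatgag
Ctsc: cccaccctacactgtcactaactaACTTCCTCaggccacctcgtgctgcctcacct
Ctss: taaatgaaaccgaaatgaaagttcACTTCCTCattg
The matches began 13 bases before the start for Ctsa, 99 for Ctsd, 49 for Lgmn, 151 for Ctsc and 2 for Ctss. Ctsl held CACGTG 236 bases before its start, and Ctsa held a second TCACGTGA that began 4 bases past its start and is cut short in the printed stretch.

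Levels are given as CPM (counts per 1000000), the UMIs of a gene over all UMIs of the class sum, for libraries 1 to 3 in that order unless a library is named. Summed over the 10 members, macrophages of library 2 held 17643 CPM, plasmacytoid cells 7762 ± 475 (SD, n = 2 libraries) and monocytes 7119.6 ± 1078 (n = 3). The macrophage sums of libraries 1 and 3, each of under 10 cells and not tested, held 13272 and 5545 CPM. In library 1 this was above plasmacytoid cells (8098 CPM) and monocytes (8299 CPM). In library 3 it was below plasmacytoid cells (7329 CPM, also under 10 cells) and monocytes (6183 CPM), so the order was not the same in every library. Dendritic classes were lower, at 4808 ± 862 in cDC2 (n = 2), 4099 in mature DCs (library 2) and 2482 ± 446 in cDC1 (n = 3). B cells stood at 1570.4 ± 223, T cells at 1469 ± 323 and NK cells at 1191 ± 235 (n = 3 each). The lymphoid classes thus overlapped each other in the sum, although their make-up of members differed, as set out by gene next.

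**Figure D1:**
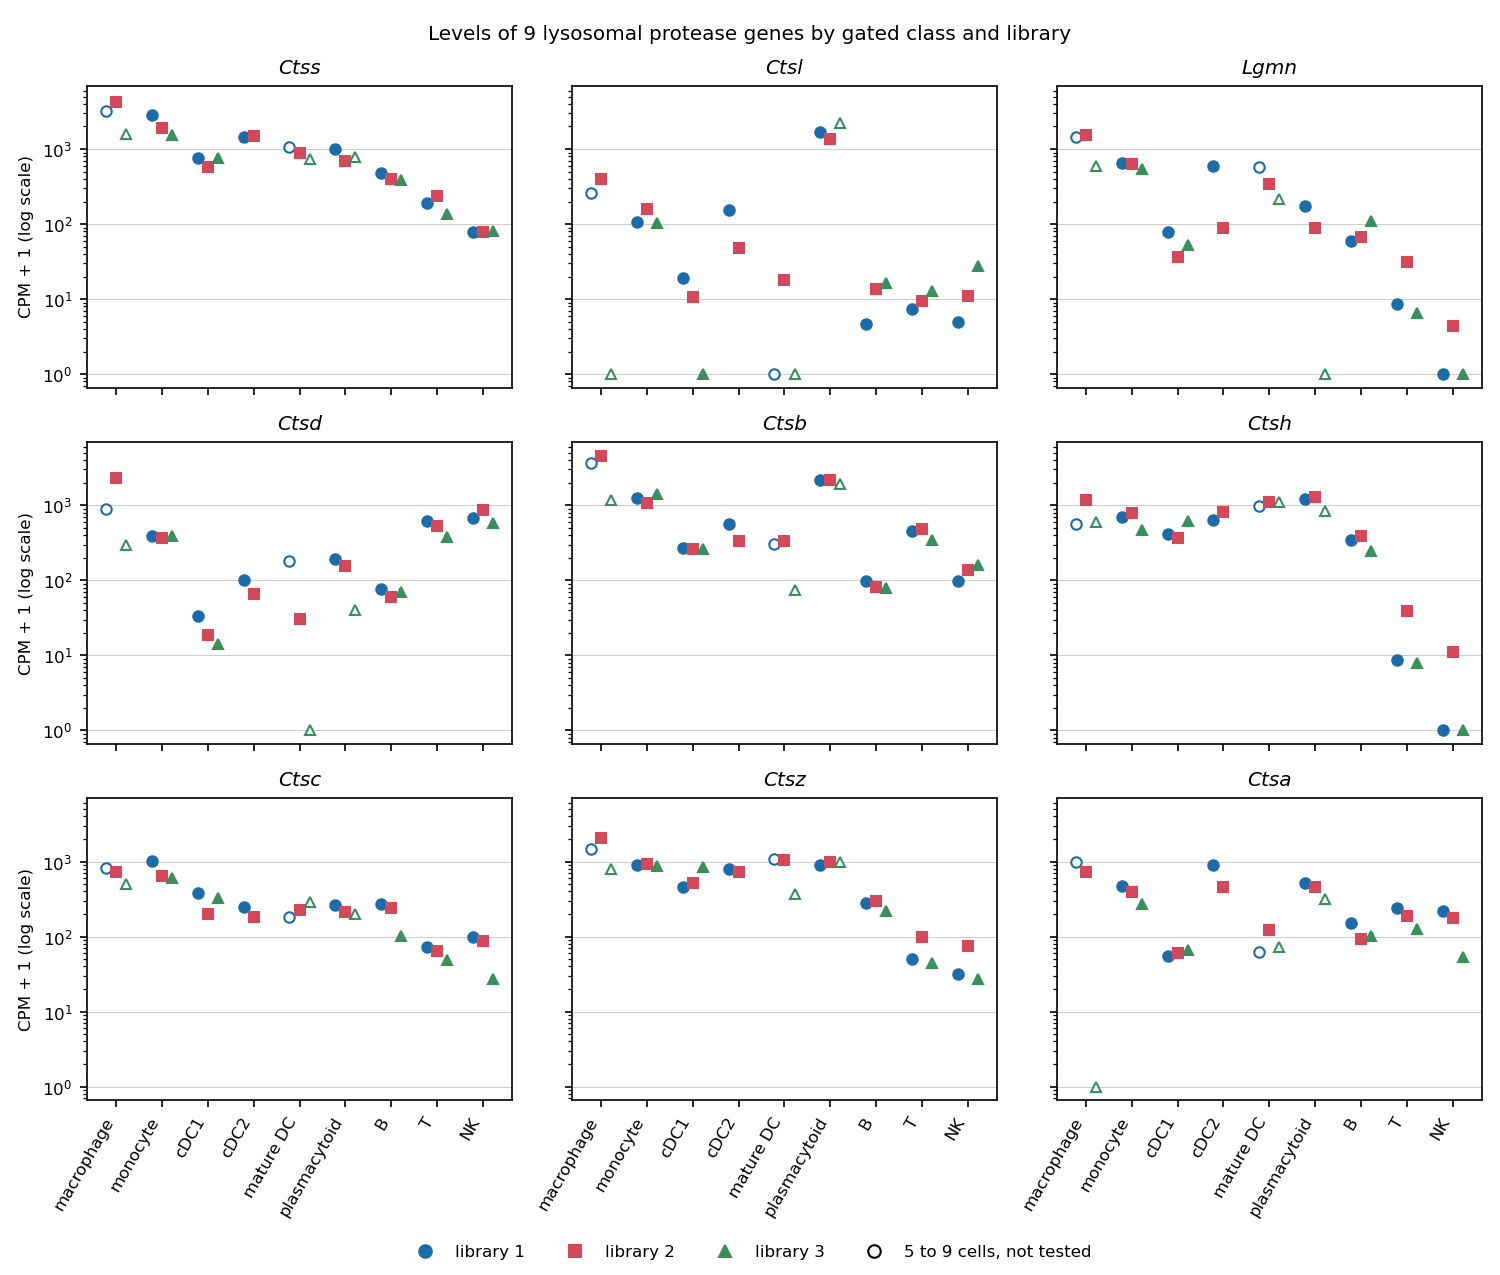
Level of each of 9 members (CPM + 1, log axis) in 9 gated classes (x axis), 1 point per library; open points are sums of 5 to 9 cells, which were not tested, and a point at 1 is a count of 0. Ctsl stood apart in plasmacytoid cells, where its 3 sums ranged from 1373 to 2246 CPM, and Ctsd was high in macrophages, T cells and NK cells but low in cDC1, from 13 to 32.9 CPM.

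Among the endopeptidases that act on the invariant chain, Ctss is the main enzyme of peripheral antigen-presenting cells. Its level was 3228, 4247 and 1584 CPM in macrophages, 2810.1, 1918 and 1546 in monocytes and 1436 and 1489 in cDC2 (libraries 1 and 2). The macrophage values of libraries 1 and 3 rested on 6 and 5 cells, with exact Poisson 95% intervals of 2624 to 3930.2 and 905 to 2573 CPM, which cover counting error only. Mature DCs had 1063, 879 and 727 CPM, plasmacytoid cells 990.1, 693 and 788 and cDC1 761, 580.2 and 756, and these classes overlapped one another. B cells followed with 478, 399 and 381 CPM, T cells with 193, 233 and 137 and NK cells with 77.7, 76.7 and 79.5, 3 ranges that did not overlap. Over sums of at least 10 cells, the order of means was macrophages, monocytes, cDC2, mature DCs, plasmacytoid cells, cDC1, B, T and NK cells.

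Ctsl, which cleaves the invariant chain in thymic epithelium and also processes other endosomal proteins, had a different order. Plasmacytoid cells held 1713, 1373 and 2246 CPM, the third value from 7 cells. Macrophages of library 2 held 397 CPM, while the 6 macrophages of library 1 held 261 CPM (113 to 514) and the 5 of library 3 held no UMI, which allows up to 297 CPM at 3 counts. Monocytes stood at 105, 156 and 101 CPM and cDC2 at 154 and 46.6, overlapping each other. All other tested sums lay at or below 26.5 CPM, with cDC1 at 18.3, 9.62 and 0, where a count of 0 allows up to 39.1 CPM, and T cells at 6.47, 8.44 and 11.7. Plasmacytoid cells and every other class were separated without overlap.

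Legumain, which also trims other cathepsins to their mature chains, was highest in macrophages and monocytes. Its level was 1467, 1535 and 594 CPM in macrophages and 652, 622 and 546 in monocytes, with only library 3 bringing the 2 ranges together. Mature DCs held 577, 345 and 218 CPM and cDC1 78.5, 35.9 and 52.1. In cDC2 the libraries disagreed, at 596 CPM in library 1 and 87.0 in library 2, and 1 cell gave 37.9% of the former's 66 UMIs. Plasmacytoid cells of libraries 1 and 2 had 171 and 88.8 CPM and B cells 57.9, 65.4 and 109, which overlapped. T cells held 7.70, 30.1 and 5.63 CPM, and NK cells 0, 1 and 0 UMIs, where a count of 0 allows up to 11.7 and 79.5 CPM in libraries 1 and 3.

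Ctsd is the aspartic endopeptidase that starts the breakdown of many proteins in lysosomes. Its means in T and NK cells exceeded those of all myeloid classes but macrophages, which held for no other member. Macrophages of library 2 held 2283 CPM, and the small macrophage sums of libraries 1 and 3 held 880.4 (580.2 to 1281) and 297 CPM (61.3 to 868). NK cells came next with 669, 854 and 583 CPM, then T cells with 608, 534 and 376 and monocytes with 388, 365 and 384. NK and T cells overlapped, as did T cells and monocytes. Plasmacytoid cells of libraries 1 and 2 had 190.3 and 156 CPM, cDC2 99.3 and 65.3, B cells 75.5, 59.8 and 70.0, mature DCs of library 2 29.5 and cDC1 32.9, 18.0 and 13. Every T and NK sum was thus above every tested dendritic, plasmacytoid and B sum.

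Among the cysteine exopeptidases, Ctsb, which removes dipeptides and can also cut internally, was high in macrophages and plasmacytoid cells. It reached 3619.5, 4545 and 1188 CPM in macrophages, 2154, 2171 and 1931 in plasmacytoid cells and 1259, 1071 and 1394 in monocytes. Tested sums of these 3 classes did not overlap. T cells, at 456, 479 and 343 CPM, lay between the cDC2 values of 569 and 333 and above the cDC1 values of 272, 262 and 261. NK cells (97.2, 137 and 159 CPM) and B cells (97.5, 80.7 and 77.7 CPM) were lowest and overlapped.

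Ctsh, an aminopeptidase, was held by myeloid, plasmacytoid and B cells and was close to 0 in T and NK cells. Plasmacytoid cells held 1209, 1290.3 and 827 CPM, mature DCs 972, 1093 and 1090.0, cDC2 632 and 820.4, monocytes 699.8, 792 and 465 and cDC1 411, 362 and 626. B cells had 339, 388 and 249 CPM, a range that overlapped with cDC1 alone among their neighbours in the order. T cells had 7.70, 38.6 and 6.93 CPM and NK cells 0, 3 and 0 UMIs. Macrophages of library 2 stood at 1168 CPM, and those of libraries 1 and 3 at 554 and 594.

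Ctsc, or dipeptidyl peptidase 1, removes the activation dipeptide of granzymes. It was highest in monocytes (1020.1, 643 and 596 CPM) and macrophages (815, 721 and 495 CPM), which overlapped. The dendritic and plasmacytoid classes lay between 182 and 379.6 CPM. B cells held 274, 241 and 101 CPM against 71.9, 63.2 and 48.1 in T cells and 97.2, 86.7 and 26.5 in NK cells. The classes that carry granzymes were thus the lowest for this enzyme, and their ranges overlapped.

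Ctsz, a carboxypeptidase also known as cathepsin X, was held by all myeloid and plasmacytoid classes. Macrophages had 1467, 2034 and 792 CPM, mature DCs 1093, 1056 and 363, plasmacytoid cells 887, 987 and 985, monocytes 888, 917 and 879, cDC2 804 and 715 and cDC1 464, 515 and 834. B cells stood at 278, 299 and 218 CPM, below all of these, and T cells (49.9, 97.4 and 43.3 CPM) and NK cells (31.1, 73.4 and 26.5 CPM) lay lower and overlapped.

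Ctsa, the serine carboxypeptidase that also protects lysosomal beta-galactosidase and neuraminidase, set cDC2 and cDC1 apart. It was 885 and 459.9 CPM in cDC2 of libraries 1 and 2 and 54.8, 59.6 and 65.2 in cDC1. Macrophages of libraries 1 and 2 held 978 and 713 CPM and the 5 of library 3 no UMI (up to 297 CPM), plasmacytoid cells 519, 455 and 315 and monocytes 476, 393 and 273, of which the last 2 classes overlapped. T cells (238, 187 and 125 CPM), NK cells (218, 173 and 53.0 CPM) and B cells (149.6, 91.8 and 101 CPM) were all above cDC1 except for NK cells of library 3.

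Ctsk, the collagen-degrading enzyme of osteoclasts, was almost absent from the counts. It had 6 UMIs in 5 cells of the 13637, all in library 2. Gated macrophages held 4 of these UMIs, in 3 of 2102 cells. With 0 UMIs, libraries 1 and 3 allowed up to 0.141 and 0.882 CPM over all kept cells. Ctsk was removed by the filter on low counts, so 9 of the 10 members entered the tests.

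The classes were compared in 1 edgeR fit of 21 sums of at least 10 cells, with the library as a block and a call at an adjusted p under 0.05 over all 9327 genes tested. Macrophages and mature DCs entered with 1 sum each, from library 2, so their own spread could not be measured and was taken to equal that of the other classes. The 8 comparisons share sums, so they are not independent of each other. The cells of a library came from the same mouse or pool, so p-values measure the spread between libraries after their mean difference is removed.

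**Figure D2:**
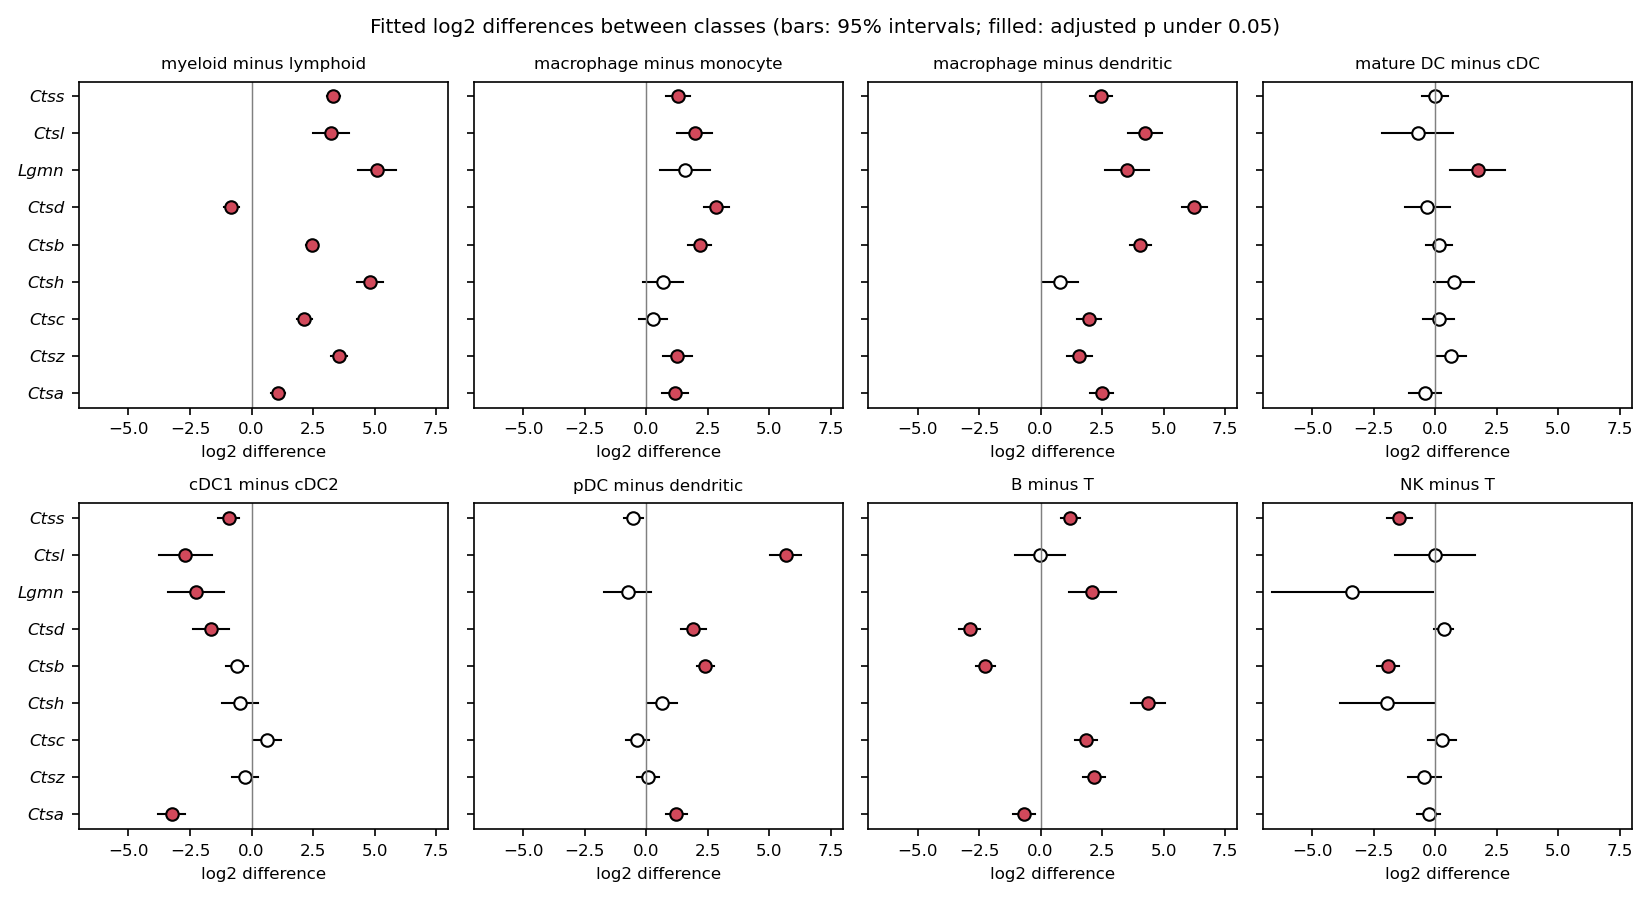
Fitted log2 difference (x axis) of 9 members (y axis) in 8 comparisons, with 95% intervals of 1.96 standard errors as bars and filled points for adjusted p under 0.05. Of the 9 members, 8 lay to the right of 0 in myeloid minus lymphoid classes and Ctsd to the left, and Ctsl was farthest right in plasmacytoid minus dendritic cells, at 5.68.

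Myeloid classes, taken as the equal-weight mean of macrophages, monocytes, cDC1, cDC2 and mature DCs, were compared with the mean of T, B and NK cells. Of 9 tested members, 8 were higher in myeloid classes and 1 was lower, against 20.3% and 21.8% of all genes. Lgmn differed most, by 5.09 ± 0.39 (SE) on the log2 scale (adjusted p = 1.58e-12), followed by Ctsh at 4.80 ± 0.27 and Ctsz at 3.55 ± 0.16. Ctss (3.33 ± 0.13), Ctsl (3.22 ± 0.38), Ctsb (2.44 ± 0.13), Ctsc (2.15 ± 0.15) and Ctsa (1.05 ± 0.15) were also higher. Ctsd was lower in the myeloid mean by a log2 difference of -0.83 ± 0.16 (adjusted p = 5.31e-05), 1.78-fold. Its lowest myeloid sums were dendritic, and macrophages of library 2 exceeded every lymphoid sum. Lgmn, with few UMIs in T and NK cells, was at 4.13 without library 1 and at 7.07 and 9.06 after C1q-scaled and H2-Aa-scaled subtraction of the macrophage profile, and Ctsl was at 2.49 without library 1. After H2-Aa-scaled subtraction Ctsh was at 6.56, Ctsz at 4.30 and Ctsl at 3.95. The profile scaled to H2-Aa exceeded T cells of library 2 for Lgmn (73.4 against 30.1 CPM), Ctsh (55.9 against 38.6) and Ctsl (19.0 against 8.44). Remainders below 0 were set to 0, so the values for these genes partly reflect that floor. For Ctsz the profile took 97.3 of the 97.4 CPM of these T cells. The H2-Aa-scaled subtraction was made in T and NK cells only, so it lowered the lymphoid side alone and left B cells as they were. In sums of at least 5 cells, Ctsa and Ctsl were higher in 2 of 3 libraries, the other 6 members in 3 of 3, and Ctsd was lower in 3 of 3. For Ctsa and Ctsl the other was library 3, where macrophages held 0 UMIs of both and cDC1 and mature DCs 0 of Ctsl. The median over members was 3.22 against -0.13 over all genes. Without composition scaling all 9 calls remained, while the calls over all genes moved from 1892 higher and 2032 lower to 1375 and 3444.

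Macrophages were higher than monocytes for 6 of 9 members, against 3.84% of all genes, and lower for 0, against 2.92%. Ctsd differed most, at 2.85 ± 0.26 or 7.20-fold (adjusted p = 2.66e-09), then Ctsb at 2.18 ± 0.24, Ctsl at 1.97 ± 0.37, Ctss at 1.29 ± 0.26, Ctsz at 1.26 ± 0.30 and Ctsa at 1.17 ± 0.28. Lgmn (1.58 ± 0.52, interval 0.56 to 2.61), Ctsh (0.69 ± 0.42, interval -0.14 to 1.52) and Ctsc (0.28 ± 0.29, interval -0.30 to 0.86) were not called. The median over members was 1.29, against 0.15 over all genes. These calls rest on the macrophages of library 2. In libraries 1 to 3 the macrophage sums held 3000, 626 and 1485 CPM of the monocyte marker list, and 15652, 24281 and 9505 CPM of their own list. The monocyte sums held 2819, 1846 and 1192 CPM of the macrophage list, and 9896, 6036 and 7355 CPM of their own. The part of these markers in the differences between libraries was not tested. In sums of at least 5 cells, Ctss was higher in macrophages in 3 of 3 libraries, and Ctsa, Ctsb, Ctsd, Ctsl and Ctsz in 2 of 3. The point values of library 3 went the other way, from 5 macrophages. These held 0 UMIs of Ctsa and Ctsl, which allows up to 297 CPM, above the monocyte levels of 273 and 101. For these 2 genes library 3 thus shows no direction. When sums of 5 to 9 cells were admitted, a setting chosen after the data were seen, 1 member was called (Ctsd, 1.66), and Ctsb was at 1.07, Ctsl at 1.30, Ctss at 0.29, Ctsz at 0.44 and Ctsa at 0.56. Without composition scaling the calls over all genes turned from 358 higher and 272 lower to 242 and 493, with 6 members called higher. By DESeq2 4 members were called higher, without Ctsl and Ctsz, and 188 genes were higher and 188 lower.

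Against the mean of cDC1, cDC2 and mature DCs, macrophages were higher for 8 of 9 members, against 14.4% of all genes, and lower for 0, against 6.28%. Ctsd was 76.1-fold higher (6.25 ± 0.25, adjusted p = 3.98e-19), Ctsl 18.9-fold (4.24 ± 0.35) and Ctsb 16.6-fold (4.06 ± 0.21). Lgmn (3.50 ± 0.45), Ctsa (2.48 ± 0.24), Ctss (2.46 ± 0.22), Ctsc (1.98 ± 0.25) and Ctsz (1.58 ± 0.26) followed. Ctsh was the member not called, at 0.79 ± 0.38 (interval 0.05 to 1.53, adjusted p = 0.151). With sums of 5 to 9 cells admitted, these 8 members remained called, with Ctsd at 5.05, Ctsb at 3.26, Lgmn at 2.84, Ctss at 1.64 and Ctsz at 0.96. Without composition scaling 8 were, while the all-gene calls went from 1346 higher and 586 lower to 979 and 1013.

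Within dendritic cells, cDC1 were lower than cDC2 for 5 of 9 members, against 3.21% of all genes, and higher for 0, against 1.66%. Ctsa was 9.51-fold lower in cDC1 (-3.25 ± 0.27, adjusted p = 3.5e-10), the separation visible in its levels, and it was called in each of the 12 other settings run for this comparison. Ctsl (-2.70 ± 0.55), Lgmn (-2.26 ± 0.57), Ctsd (-1.65 ± 0.38) and Ctss (-0.92 ± 0.22) were also lower. Ctsb (-0.59 ± 0.23, interval -1.03 to -0.14), Ctsh (-0.47 ± 0.38, interval -1.21 to 0.26), Ctsz (-0.28 ± 0.27, interval -0.80 to 0.25) and Ctsc (0.62 ± 0.29, interval 0.06 to 1.18) were not called. The cDC2 sums held 4073 and 1016 CPM of the monocyte marker list in libraries 1 and 2, with 6 and 5 of its 10 genes detected, against 1701, 975 and 991 in cDC1. They held 2239 and 1004 CPM of the plasmacytoid marker list, with 8 and 9 of its 10 genes detected, against 517, 419 and 626 in cDC1 and against 1960 and 1352 CPM of their own list. Siglech, a defining plasmacytoid marker, was at 253 and 55.9 CPM in cDC2 and at 23.7, 28.2 and 52.1 in cDC1, and so was high in the same cDC2 sum as Ctsl. The part of these markers in the lower Ctsl, Lgmn, Ctsd and Ctss of cDC1 was not tested. The cDC2 sum of library 1 held 10 cells, the fewest tested, and without library 1 Ctsa stood at -2.84 and Lgmn, no longer called, at -1.11. Lgmn lost its call in 6 of the 12 settings, among them without library 3 (-2.28), and moved to -0.58 with the stricter gate and -0.59 with at least 30 cells. Ctsl lost its call in 2 of 12, at -1.69 with the stricter gate and -1.82 with at least 30 cells. Ctsd and Ctss lost theirs in 3 of 12 each, among them without library 2 (-1.51 and -0.62). By DESeq2 the calls over all genes were 91 higher and 292 lower, against 155 and 299.

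Mature DCs, which express the lymph node homing receptor Ccr7, differed from the mean of cDC1 and cDC2 in 1 member, Lgmn, against 7.26% of all genes higher and 3.13% lower. Lgmn was higher by 1.73 ± 0.57 (adjusted p = 0.0454), close to the threshold, and lost its call in 4 of 11 other settings, among them without library 3 (1.78). It was at 2.66 without library 1, 2.53 with the stricter gate and 2.37 with at least 30 cells. The other 8 members had log2 differences between -0.70 (Ctsl, interval -2.15 to 0.74) and 0.76 (Ctsh, interval -0.04 to 1.56). Ctss differed by -0.01 ± 0.26 (interval -0.52 to 0.51), and Ctsb by 0.16 ± 0.26. Over all genes, calls went from 677 higher and 292 lower to 611 and 446 without composition scaling.

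Plasmacytoid cells, the interferon-producing relatives of dendritic cells, were higher than the mean of cDC1, cDC2 and mature DCs for 4 of 9 members, against 10.9% of all genes, and lower for 0, against 8.12%. Ctsl was 51.1-fold higher (5.68 ± 0.32, adjusted p = 6.69e-15). Ctsb was 5.33-fold higher (2.41 ± 0.18), Ctsd 3.77-fold (1.91 ± 0.26) and Ctsa 2.33-fold (1.22 ± 0.22). The other 5 were not called. Ctss was at -0.52 ± 0.20 (interval -0.91 to -0.12), Lgmn at -0.75 ± 0.48 (interval -1.69 to 0.20), Ctsh at 0.64 ± 0.31 (interval 0.04 to 1.24), Ctsc at -0.36 ± 0.24 (interval -0.83 to 0.12) and Ctsz at 0.08 ± 0.23 (interval -0.36 to 0.53). Ctss and Ctsh each passed the test in 2 of 11 other settings. The 27 C1q UMIs of these cells, all in library 2, put their C1q level at 0.281% of that of macrophages, while their Ctsb was at 47.8% and their Ctsl at 346%. The C1q genes counted among the macrophage markers that could keep a cell out of the plasmacytoid gate. Their low level here is thus partly set by the gate and is no separate check. Without composition scaling 5 members were called higher, and calls over all genes went from 1012 higher and 757 lower to 1558 and 524.

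B cells and T cells held different members. Of 9, 5 were higher in B cells and 3 in T cells, against 13.2% and 16.9% of all genes. Ctsh was higher in B cells by 4.35 ± 0.35 (adjusted p = 5.18e-12), followed by Ctsz (2.17 ± 0.23), Lgmn (2.10 ± 0.48), Ctsc (1.85 ± 0.23) and Ctss (1.21 ± 0.19). Ctsd was 7.39-fold lower in B cells (-2.89 ± 0.23, adjusted p = 2.44e-12), Ctsb 4.72-fold lower (-2.24 ± 0.21) and Ctsa 1.59-fold lower (-0.67 ± 0.22, adjusted p = 0.0191). All 5 members higher in B cells were so in 3 of 3 libraries, as were the 3 higher in T cells. The sizes for Ctsh and Lgmn depend on the few UMIs of T cells. Without library 2 Ctsh was at 5.56 and Lgmn at 3.43, and Lgmn was at 2.88 after C1q-scaled subtraction. After H2-Aa-scaled subtraction Ctsh was at 8.69, Lgmn at 8.72, Ctsz at 3.83 and Ctss at 2.18. For Ctsh and Lgmn this subtraction exceeded the level of T cells in library 2, which was set to 0, so their values partly reflect that floor. For Ctsz it took 97.3 of the 97.4 CPM of these T cells. The H2-Aa-scaled profile was subtracted from T and NK cells and not from B cells. In this comparison it therefore lowered the T side alone. Ctsl was at -0.01 ± 0.51 (interval -1.02 to 0.99), with few UMIs in either class, and its sign changed in 6 of 13 other settings. Ctsa lost its call in 5 of 13, among them without library 1 (-0.77) and without library 2 (-0.38), and Lgmn lost its call without library 3 (1.71). By DESeq2 the calls over all genes were 1178 higher and 1117 lower, against 1227 and 1580.

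NK cells were lower than T cells for 2 of 9 members, against 5.95% of all genes, and higher for 0, against 2.82%. Ctsb was 3.81-fold lower in NK cells (-1.93 ± 0.23, adjusted p = 1.43e-07) and Ctss 2.74-fold lower (-1.45 ± 0.26, adjusted p = 0.000164), each in 3 of 3 libraries. Ctsd was at 0.36 ± 0.20 (interval -0.03 to 0.74), with NK above T cells in 3 of 3 libraries, and did not pass the test. Ctsc differed by 0.27 ± 0.29 (interval -0.30 to 0.85) and Ctsa by -0.26 ± 0.24 (interval -0.73 to 0.21). Lgmn and Ctsh had 1 and 3 UMIs in all NK cells, too few for a fold. T cells of library 2 held more of the C1q genes and of H2-Aa than NK cells, as given next. With the H2-Aa-scaled macrophage profile subtracted, a setting chosen after the data were seen, Ctss moved to -0.73 and was not called, while Ctsb stayed called at -1.76. By DESeq2 the calls over all genes were 282 higher and 271 lower, against 263 and 555, with the same counts of members.

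Free RNA from broken cells can enter the droplets of a library, and a doublet adds the RNA of a second cell. The member levels of lymphoid cells were therefore set beside those of transcripts that they should lack. C1qa, C1qb and C1qc, complement genes made by macrophages, served as the first probe and H2-Aa, an MHC class II gene that mouse T and NK cells lack, as the second, chosen after the data were seen. In library 2, where macrophages were plentiful, the C1q level of T cells was 1.12% of that of macrophages, of B cells 0.469% and of NK cells 0.353%. H2-Aa was at 4.78% in T cells and 0.391% in NK cells, so both marks differed between these gates of the same library. H2-Aa is not particular to macrophages. In library 2 it stood at 17930 CPM in macrophages, 20313 in cDC1, 20504 in cDC2, 18777 in mature DCs and 13364 in B cells. A macrophage profile scaled to H2-Aa can therefore count RNA of those classes as that of macrophages. T cells held Lgmn at 1.96%, Ctsl at 2.13% and Ctsh at 3.31% of the macrophage level, below the H2-Aa mark and above the C1q mark. Ctsz at 4.79% and Ctss at 5.49% were just above it. T cells held Ctsc at 8.77%, Ctsb at 10.5%, Ctsd at 23.4% and Ctsa at 26.3%, all above both marks. NK cells held Ctsd at 37.4%, Ctsa at 24.3% and Ctsc at 12.0%, with both marks under 1%.

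**Figure D3:**
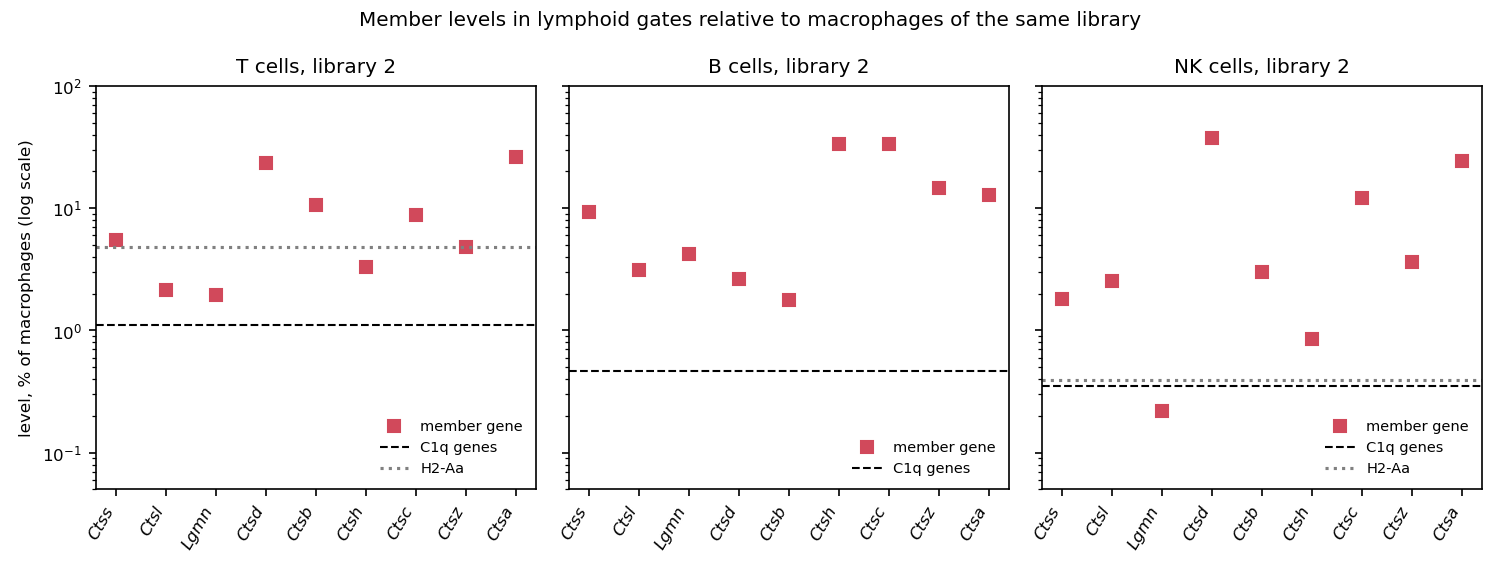
Level of 9 members in T, B and NK cells of library 2 as a percentage of the macrophage level (log axis), with the same ratio for the C1q genes (dashed line) and H2-Aa (dotted line; not drawn for B cells, which express it). In T cells Ctsd (23.4%) and Ctsa (26.3%) stood above both lines and Lgmn (1.96%) and Ctsl (2.13%) below the dotted one.

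In libraries 1 and 3, with 6 and 5 macrophages, the C1q level of T cells was 0.0972% and 0.186% of that of macrophages and their H2-Aa level 1.15% and 0.718%. Ctsh of T cells was at 1.39% and 1.17% of the macrophage level there, and Lgmn at 0.525% and 0.948%. Ctsh was thus above the H2-Aa mark in both and Lgmn in library 3, on few UMIs. For Ctsh, 1 T cell gave 23.9% of the 88 UMIs of library 1 and 43.75% of the 16 of library 3. Ctsl was at 2.48% in library 1 and has no ratio in library 3, where macrophages held no UMI. T cells there held 608 and 376 CPM of Ctsd and 456 and 343 CPM of Ctsb, against 534 and 479 CPM in library 2. Lgmn of T cells was 7.70 and 5.63 CPM against 30.1, and Ctsh 7.70 and 6.93 CPM against 38.6. Ctsd and Ctsb of T cells were thus present at a like level where macrophages were few, while Lgmn and Ctsh were highest in the library rich in macrophages and Ctsl was not (6.47, 8.44 and 11.7 CPM). The parts of free RNA and of doublets in these levels were not tested. For Ctss, the macrophage profile scaled to H2-Aa gave 37.1 CPM in T cells of library 1, where 193 were measured, and 203 CPM in library 2, where 233 were measured.

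The members were also counted by cell. Every cell was thinned to 1000 UMIs, and shallower cells were left out (83 of 3575 T cells and 52 of 2102 macrophages in library 2, for example). After thinning, 95.8% of the macrophages of library 2 had a Ctss UMI, 90.1% a Ctsb UMI and 75.0% an Lgmn UMI. Ctsl was found in 72.2 and 72.2% of plasmacytoid cells of libraries 1 and 2 and in 0.722, 0.945 and 0.806% of T cells, given for comparison as a class with few UMIs of this gene. Ctsd was found in 41.9, 40.3 and 41.7% of NK cells and 40.5, 34.2 and 25.2% of T cells, against 4.85, 8.30 and 9.38% of B cells and 2.94, 2.36 and 0% of cDC1, where 0 of 10 cells allows up to 30%. Unthinned, these shares of Ctsd were 83.3, 83.6 and 91.7%, 77.5, 63.8 and 42.5%, 23.0, 16.2 and 12.9% and 17.6, 14.2 and 10.0%. Ctsh was found in 29.8, 29.9 and 14.1% of B cells against 0.361, 1.49 and 0.345% of T cells and 0, 1.49 and 0% of NK cells, where the counts of 0 allow up to 6.98% and 25.0%, and unthinned in 69.4, 62.7 and 35.7%, 1.32, 4.45 and 0.724% and 0, 4.48 and 0%. Without thinning, at median depths of 8678 and 4487 UMIs in plasmacytoid cells and 3907, 2797 and 1921 in T cells, the Ctsl shares were 88.9 and 91.8% and 2.68, 2.80 and 2.38%.

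**Figure D4:**
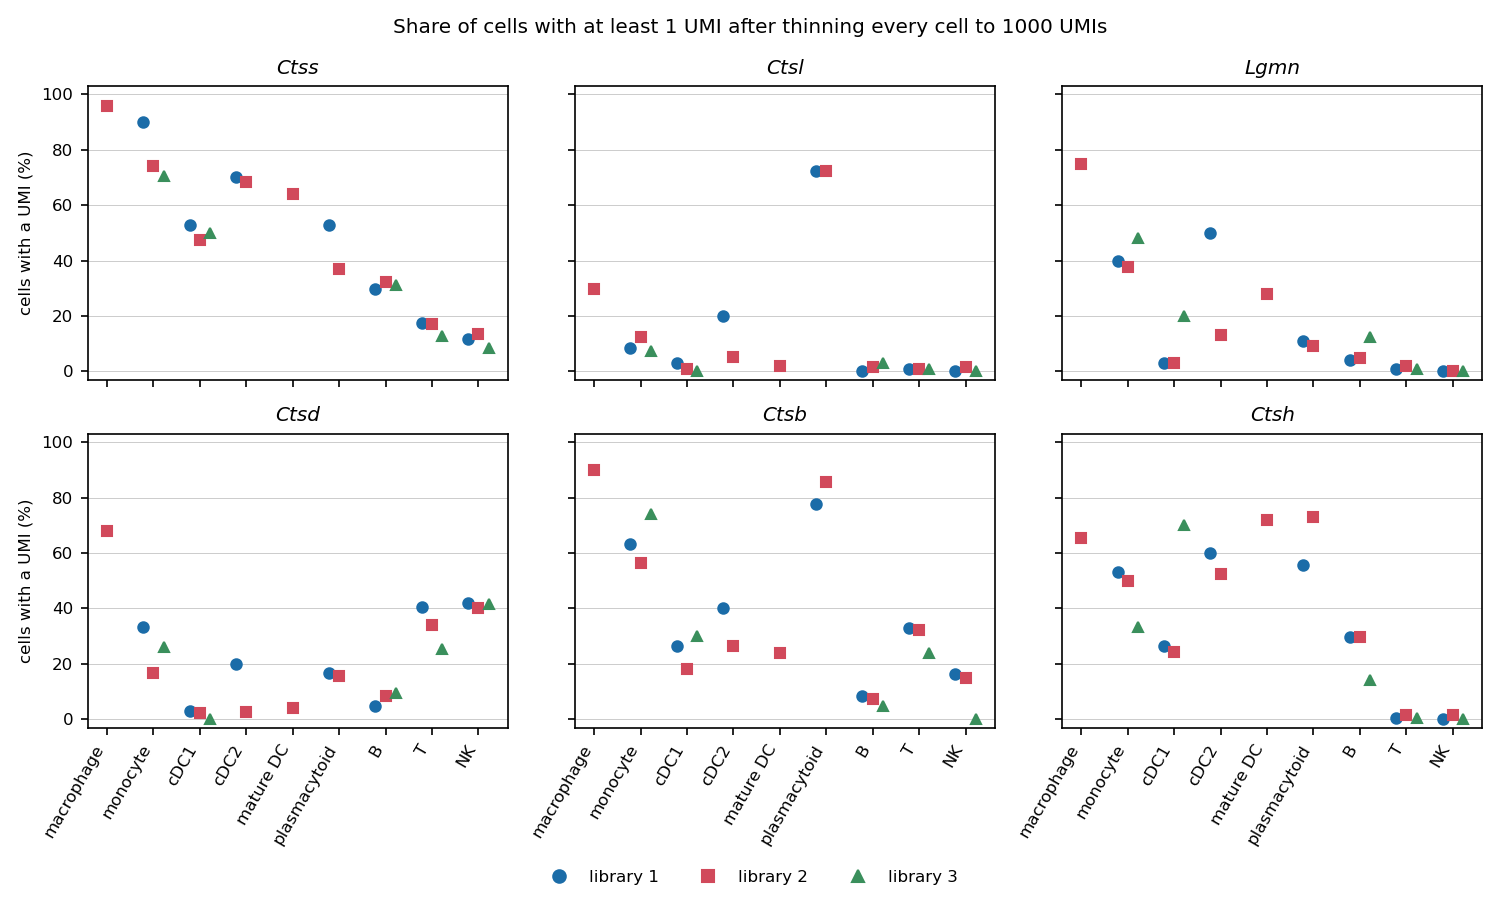
Share of cells with at least 1 UMI of 6 members (y axis, %) in each class (x axis), 1 point per library with at least 10 cells, after every cell was thinned to 1000 UMIs. Ctsl stood at 72.2 and 72.2% in plasmacytoid cells, and Ctsd was found in more T and NK cells than B cells or cDC1 in every library.

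The other genes of the lysosome were grouped in 7 lists and described by their counts, with log2 differences in parentheses for genes that passed the test. In myeloid minus lymphoid classes, 19 of 27 tested hydrolases and cofactors were higher and 3 lower, with a median of 1.70 against -0.13 over all genes, of which 20.3% were higher and 21.8% lower. Grn, the progranulin gene (3.84), and Asah1, acid ceramidase (3.43), led, and Smpd1, acid sphingomyelinase (-2.09), and Pld3 (-1.91) were lowest. Of 12 membrane genes 7 were higher and 0 lower, led by Cd68 (5.44) and Cd63 (3.41), with a median of 1.56. Of 15 subunits of the V-ATPase, the pump that acidifies lysosomes, 12 were higher and 0 lower, led by Atp6v0c (1.85), with a median of 0.73. The sorting and transcription factors counted 4 higher and 1 lower of 8 (median 0.81), with Mitf, a relative of TFEB, at 2.86 and Igf2r, a receptor that carries enzymes to lysosomes, at -2.93. The other cathepsins and peptidases split, with 5 higher and 4 lower of 11 (median 1.34). Ifi30, a thiol reductase of antigen processing, was higher (4.50), and Ctsw, a cathepsin of cytotoxic cells, was lower (-3.49), as was Ctse (-2.99).

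Of the cysteine and related protease inhibitors, 2 of 7 were higher in myeloid classes and 5 lower (median -1.31). The higher ones were Cst3, or cystatin C (4.64), and Cstb, or cystatin B (2.27). Serpinb9, an inhibitor of granzyme B, was lower (-1.78), as was Serpinb6b, a related serpin, which stood at 789, 274 and 477 CPM in NK cells and 64.6, 31.8 and 52.4 in T cells but also at 443 in mature DCs of library 2. Cst3 was 17154, 20168 and 17793 CPM in cDC1 and 17945 in mature DCs of library 2, against 6421 in its macrophages. Cst3 was thus higher in cDC1 and mature DCs than in macrophages, the other way round from Ctsd and Ctsl. The substrates list counted 7 higher and 3 lower of 11 (median 3.92), the former led by the MHC class II genes H2-Ab1 (4.77) and H2-Aa (4.43) and the latter by Gzma, itself a gating marker of NK cells, and Gzmk (-4.27).

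Between macrophages and monocytes, 10 of 27 hydrolases and cofactors and 6 of 12 membrane genes were higher in macrophages and none lower, against 3.84% of all genes higher. Acp5, an acid phosphatase (3.27), Pld3 (3.08) and Cd63 (4.42) led. The V-ATPase counted 1 higher of 15. Of the peptidases 3 were higher, led by Dpp7 (3.02) and Tpp1 (2.69), and Napsa, an aspartic protease like Ctsd, was lower (-1.41). Napsa stood at 94.8 CPM in macrophages of library 2 and at 822 and 1085 in cDC2, 886 in mature DCs and 801, 725 and 599 in B cells, so among these classes it was lowest where Ctsd was highest.

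In plasmacytoid minus dendritic cells the hydrolases and cofactors counted 2 higher and 9 lower of 27 (median -0.21 against 0.11 over all genes), while 4 of 9 members were higher and 0 lower, beside 10.9% and 8.12% over all genes. Grn (2.23) and Psap, the saposin precursor (1.10), were the 2 higher ones. Cst3 was lower in plasmacytoid cells (-3.20), at 1867 and 1684 CPM. In B minus T cells, the V-ATPase counted 4 higher and 0 lower of 15, the membrane genes 1 and 3 of 12, and the peptidases 5 and 1 of 11, each higher first, beside 13.2% higher and 16.9% lower over all genes. Napsa (3.64) and Ifi30 (3.52) were higher in B cells and Ctsw (-4.63) and Cst7, a cystatin of cytotoxic cells (-4.36), in T cells. Between NK and T cells, Ctsw was higher in NK cells (1.22), at 1551, 1588 and 1246 CPM against 634, 548 and 511, and Serpinb9 was higher too (3.76).

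The genes whose levels over the 21 sums were most like each member are given as a description over 5482 genes with a mean of at least 20 CPM, on log2(CPM + 1) centred per library. The sums share libraries and depth, and 9 classes recur among them. Ctss was most like App (r = 0.96), Pirb (0.95) and Slc15a3 (0.95), and Lgmn most like Slc15a3 (r = 0.93), App (0.93) and Gngt2 (0.93). Pirb (r = 0.96) and Rassf4 (0.94) were among the genes most like Ctsz. Ctsh was most like Ly86 (r = 0.97), Rassf4 (0.96) and Pld4 (0.96), and Ctsc most like Nfe2l2 (r = 0.90), Wfdc17 (0.87) and Tns3 (0.87). Ctsl was most like Lair1 (r = 0.94), Fth1 (0.87) and Smim5 (0.84), of which Smim5 is a gating marker of plasmacytoid cells. Ctsb was most like Npc2 (r = 0.87), Tmem86a (0.86) and Ifnar2 (0.85), Ctsd most like Timp2 (r = 0.89), Pde2a (0.88) and Pld3 (0.86) and Ctsa most like Cx3cr1 (r = 0.87), Rgl1 (0.86) and Zeb2 (0.84). Among the members, Ctsh and Ctsz (r = 0.96), Ctss and Lgmn (0.95) and Ctss and Ctsz (0.94) ran together most closely. Ctsd ran against Ctsh (-0.51) and Ctsz (-0.39), and of the other members it was most like Ctsa (0.49).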

How the data were processed

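The authors mapped 5′ single-cell libraries to mm10, and the deposited values are unnormalised UMI counts; per the file headers, Cell Ranger was version 5.0.1 for library 1 and 6.1.2 for libraries 2 and 3. Cells with at least 300 UMIs, at most 5000 genes and at most 20% mitochondrial UMIs were kept. Classes were gated on at least 3 markers of a list, with competing lists at no more than 0.6 of its share (0.75 within the non-lymphoid classes). The gate limits were set after marker detection was seen, and the classes were rebuilt here, so shares may differ from the study's own. Scrublet's automatic limit marked 0, 0 and 2 cells, so doublets were kept, and removal of the 118, 545 and 19 highest scores was an alternative. UMI counts were summed per library and class. Sums of at least 10 cells were tested with edgeR 4.0.16 (R 4.3.3) by the quasi-likelihood test with TMM scaling, filterByExpr and Benjamini-Hochberg adjustment, and the steps were tested on simulated data. DESeq2 1.42.0, other scalings, filters, gates, cell minimums, free RNA subtraction and leaving out each library were alternatives. Levels are CPM; intervals are exact Poisson and cover counting error only. Shares were computed after thinning to 1000 UMIs. Promoter windows came from RefSeq (GRCm38.p6). The members and gene lists were chosen with earlier results of these data known. The lists were the other cathepsins and peptidases, protease inhibitors, hydrolases and cofactors, membrane genes, V-ATPase, sorting and transcription factors, and substrates. Named were the members, of each list up to 2 genes with the largest called difference in each direction, and per member the 3 genes most like it, of which 1 is not reported here. Genes given at other levels for comparison were named after their values were seen. Python 3.11.15 and scanpy 1.11.5 were used for loading and gating.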

Additional observations from a re-analysis of the deposited data

How the results depend on the processing

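The counts of members called stayed within 1.5 times the reported count in myeloid minus lymphoid classes (9 called when each library that could be left out was), macrophages minus dendritic cells (8 to 9), plasmacytoid minus dendritic cells (4) and B minus T cells (7). The exceptions follow. Macrophages minus monocytes fell from 6 called members to 1 with sums of at least 5 cells, and gave 6 to 7 without 1 library. Mature DCs minus cDC1 and cDC2 went from 1 called member to 0 without composition scaling, by DESeq2 and without the library block, to 2 with the stricter gate and with at least 30 cells, and to 0 to 1 without 1 library. The comparison of cDC1 with cDC2 went from 5 to 3 without the library block, with the stricter gate and with at least 5 cells, to 2 with at least 30 cells, and to 3 to 4 without 1 library. NK minus T cells went from 2 to 4 with no filter on low counts and to 1 with the H2-Aa-scaled profile subtracted, and stayed at 2 without 1 library.

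No called difference changed sign. Among differences not called, Ctss of mature DCs moved to 0.0764 by DESeq2, 0.0456 without the library block, 0.0297 with the stricter gate, 0.0322 without the highest doublet scores and 0.0395 after C1q-scaled subtraction, and ranged from -0.0851 to 0.0568 without 1 library. With at least 5 cells, Ctsc of macrophages minus monocytes was -0.32, and in mature DCs Ctsc was -0.22, Ctsd 0.11 and Ctsb -0.38. Ctsl of B minus T cells was 0.18 by DESeq2, 0.0559 with at least 30 cells, 0.33 after C1q-scaled and 1.58 after H2-Aa-scaled subtraction, and ranged from -0.4084 to 0.5221 without 1 library. Ctsl of NK minus T cells was 0.0688 without composition scaling, 0.11 by DESeq2, 0.0692 with the stricter gate, 0.10 without the highest doublet scores, 0.45 after C1q-scaled and 1.61 after H2-Aa-scaled subtraction, and ranged from -0.1774 to 0.2471 without 1 library. After H2-Aa-scaled subtraction Ctsz and Ctsh of NK minus T cells were 1.11 and 1.90. In that setting Ctsl and Ctsh of T cells in library 2 were set to 0, because the subtracted profile exceeded them. Ctsz of these T cells was left near 0, with 97.3 of 97.4 CPM subtracted. B cells were not subtracted in that setting. The causes were not tested.

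The share of cells with a UMI of any member moved without thinning to 99.9524% in macrophages, 100% in cDC1 and plasmacytoid cells, 96.5% in mature DCs, 93.2% in B cells, 88.8% in T cells and 96.1% in NK cells. The summed member level of macrophages moved from 17643 to 17872 CPM without the highest doublet scores. The minimum of 5 cells and the H2-Aa subtraction were chosen after the data were seen. Without composition scaling the median of all genes shifted by -0.30 in myeloid minus lymphoid classes, -0.24 in macrophages minus monocytes, -0.26 in macrophages minus dendritic cells, -0.10 in mature DCs and 0.24 in plasmacytoid cells, and by DESeq2 by 0.12 in B minus T cells and 0.20 in NK minus T cells. Without library 2 only B minus T, NK minus T and cDC1 minus cDC2 could be fitted, and under the stricter gate the summed levels of cDC1, cDC2 and NK cells lost a library and stood at 2234, 4403 and 1287 CPM. The library block pairs the classes of a library, and the counts without it are given above where they moved. The depth of library 3 and the few macrophages and mature DCs outside library 2 limit what the counts can show.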
